A study of Mus musculus with 6 samples.

Results

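Cells sense oxygen through enzymes that need it as a substrate. With oxygen present, the prolyl hydroxylases EGLN1, EGLN2 and EGLN3 (also called PHD2, PHD1 and PHD3) hydroxylate the alpha subunits of hypoxia-inducible factor, HIF, and the von Hippel-Lindau protein VHL then binds the marked subunit and leads it to ubiquitination and the proteasome. The asparaginyl hydroxylase HIF1AN (FIH) separately keeps the subunit from recruiting coactivators. Without oxygen the subunits HIF-1 alpha (Hif1a) and HIF-2 alpha (Epas1) are stable, pair with ARNT and turn on genes for glycolysis, blood vessel growth, pH control and mitophagy. The genes Egln1 and Egln3 are themselves HIF targets in many cells, so the pathway has a negative feedback. Carbonic anhydrase IX (Car9) and the mitophagy receptor gene Bnip3 are widely used as HIF target genes.

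The 9 genes Egln1, Egln2, Egln3, Hif1an, Vhl, Hif1a, Epas1, Car9 and Bnip3 were taken by symbol from a table of 55809 gene symbols, and all 9 were found in it. The set was selected on the measured difference between the media, with the lower level of Egln3 in NET medium in view. The members' own values are therefore given as description, and the word called marks only on which side of the threshold a gene fell.

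The cells were 410.4 cells, a mouse mammary carcinoma line, kept in DMEM with 0.5% fetal calf serum. In the NET medium group (3 libraries) they were grown for 2 days in medium conditioned with neutrophil extracellular traps (NETs), webs of chromatin and granule proteins cast out by neutrophils. In the control medium group (3 libraries) they had the same medium without NETs for the same time. The sample titles name this group Veh, read here as vehicle. All libraries are of a single line, the labels name neither an oxygen level nor a hypoxic sample, and whatever else NET-conditioned medium carried cannot be told apart from the NETs. Nothing in the labels says whether the replicates were separate cultures, and the p-values then cover the spread among the 6 libraries alone, possibly a technical one.

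Total counts ran from 31119105 to 64431811 per library. Of 13956 genes tested with edgeR's quasi-likelihood test, 2825 were called higher and 2605 lower in NET medium at an adjusted p of 0.05, which is 38.9% of the genes tested. The 8 epithelial marker genes were all measured, with a summed level of 4771 to 4966 CPM in NET medium and 4647 to 4929 CPM in control medium (CPM, counts scaled to a common library size with TMM factors). This sum hides opposite differences, since 2 of the 8 were called higher and 3 lower, 62.5% against 38.9% of all tested genes. Their log2 fold changes ran from -0.27 for Krt18 to 0.41 for Krt7. Of 16 neutrophil marker genes 8 were at 0 in every library, Elane, Ctsg, Camp and Ngp among them. Of the 3 tested, 2 were called higher, 66.7% against 38.9% of all tested genes. All 3 lay higher in NET medium, with log2 fold changes of 0.94 to 2.71. The summed level of the list was 3.28 to 3.65 CPM in NET medium and 1.69 to 2.23 CPM in control medium. Of 8 macrophage marker genes 3 were measured, Adgre1 and C1qb were at 0 throughout, and the list summed to 88.3 to 97.5 CPM in NET medium and 36.1 to 40.2 CPM in control medium. Of the 3, Csf1r alone was called higher (80.2 ± 5.30 CPM in NET medium and 24.1 ± 1.43 CPM in control medium), Mrc1 was called lower (2.63-fold) and Cd68 was not called, although without control medium replicate 3 it was called lower (log2 fold change -0.32). Of the exon bases of Csf1r 15.1% are shared with Hmgxb3 on the other strand. Of 7 fibroblast marker genes 2 were measured, Dcn and Lum were at 0 throughout, and the list summed to 59.3 to 68.0 CPM in NET medium and 42.8 to 48.7 CPM in control medium. Col1a1 was called higher (13.4 ± 2.48 CPM in NET medium and 1.18 ± 0.129 CPM in control medium), and Pdgfra was not called (49.2 ± 2.13 CPM in NET medium and 45.4 ± 3.37 CPM in control medium). The part of these lists' differences in the results was not tested.

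Among the 9 genes, 4 are on the list of HIF targets, and the stretches before their start sites are shown because HIF is known to bind the letters ACGTG or GCGTG. The 250 bases before the gene start are given as RefSeq annotates them on GRCm38.p6, read 5′ to 3′ along the gene, with each ACGTG or GCGTG on either strand in capitals (on the other strand it reads CACGT or CACGC). Egln3 lies on the minus strand at chr12:54203875-54204124, Egln1 on the minus strand at chr8:124949255-124949504, Car9 on the plus strand at chr4:43506776-43507025, and Bnip3 on the minus strand at chr7:138909507-138909756.
Egln3: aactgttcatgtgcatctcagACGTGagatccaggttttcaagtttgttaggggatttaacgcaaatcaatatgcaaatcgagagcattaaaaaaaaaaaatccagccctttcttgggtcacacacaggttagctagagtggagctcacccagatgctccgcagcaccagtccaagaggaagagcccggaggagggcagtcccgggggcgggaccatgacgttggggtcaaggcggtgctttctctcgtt
Egln1: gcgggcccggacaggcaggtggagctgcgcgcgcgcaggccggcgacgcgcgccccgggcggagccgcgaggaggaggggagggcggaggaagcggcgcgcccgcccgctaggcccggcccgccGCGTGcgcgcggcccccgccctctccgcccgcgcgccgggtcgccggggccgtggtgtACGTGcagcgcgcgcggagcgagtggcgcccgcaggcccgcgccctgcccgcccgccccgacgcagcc
Car9: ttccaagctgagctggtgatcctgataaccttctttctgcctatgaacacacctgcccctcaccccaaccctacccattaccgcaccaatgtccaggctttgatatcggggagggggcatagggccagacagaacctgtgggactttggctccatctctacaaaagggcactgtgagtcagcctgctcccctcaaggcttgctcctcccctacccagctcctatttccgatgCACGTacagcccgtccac
Bnip3: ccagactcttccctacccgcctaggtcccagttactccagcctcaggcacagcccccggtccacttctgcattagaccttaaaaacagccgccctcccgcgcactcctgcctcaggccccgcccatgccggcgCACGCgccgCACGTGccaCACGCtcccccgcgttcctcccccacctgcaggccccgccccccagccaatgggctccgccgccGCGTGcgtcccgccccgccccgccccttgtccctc

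The window of Egln3 held 1 such match, which begins 229 bases before the start, and that of Egln1 held 2, of which the ACGTG 68 bases before the start is part of TACGTG. The window of Car9 held 1 match, which begins 18 bases before the start and is also part of TACGTG, read on the other strand. Bnip3 had 5 matches, 2 of which are both strands of a single CACGTG. Base composition differed between them, with 86.0% G and C in the window of Egln1, 72.4% in that of Bnip3, 56.4% in that of Car9 and 50.8% in that of Egln3. At least 1 match stood in 7 of the 9 windows found for 8 of the genes (Egln2 has 2 windows, and Epas1 had no entry), against 55.1% of 12855 windows of tested genes and 38.6% of all 32851 windows. The longer TACGTG stood in 3.19% of the windows of tested genes. A match is a description of letters and not a site of binding. The human EGLN3 gene is known to carry a HIF element in its first intron, which these windows do not cover.

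Egln3 had the largest difference between the media among the 9 genes. It was at 30.99, 32.4 and 32.7 CPM in the 3 NET medium libraries, against 146, 152 and 146 CPM in the control medium libraries. The groups were far apart, and within each medium the libraries stood close together. The means were 32.1 ± 0.929 CPM in NET medium and 148 ± 3.69 CPM in control medium (SD, n = 3 each), 4.62-fold lower with a log2 fold change of -2.21 ± 0.05 (SE). Among the 2187 genes called lower whose mean reached 5 CPM, Egln3 stood in place 8 by fold change, and 57 of all tested genes, 0.408%, had a log2 fold change at or below its own. Over all the alternatives tried its log2 fold change lay between -2.28 and -2.19. In bulk RNA a smaller share of cells with the transcript cannot be told apart from less transcript in each cell. In the coordinates of the deposited table, whose build is not named in it, Egln3 spans positions 54225767 to 54250646 of chromosome 12, exons and introns together, and none of its exons overlaps another gene.

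The other prolyl hydroxylase genes did not follow Egln3. Egln1, which encodes the main HIF hydroxylase in most cells with oxygen, was at 104, 102 and 105 CPM in NET medium and at 87.5, 94.4 and 88.1 CPM in control medium. Every NET medium library lay above every control medium library, and Egln1 was called higher at 1.16-fold (log2 fold change 0.21 ± 0.05, SE). Its call held under every alternative tried, with log2 fold changes of 0.14 to 0.24. Egln2 was at 35.1, 34.8 and 34.04 CPM in NET medium and at 39.4, 37.4 and 37.1 CPM in control medium. Although these groups do not overlap either, Egln2 was not called (log2 fold change -0.13 ± 0.06), and it was called lower with upper-quartile factors (-0.16) and with library size alone (-0.20).

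**Figure D1:**
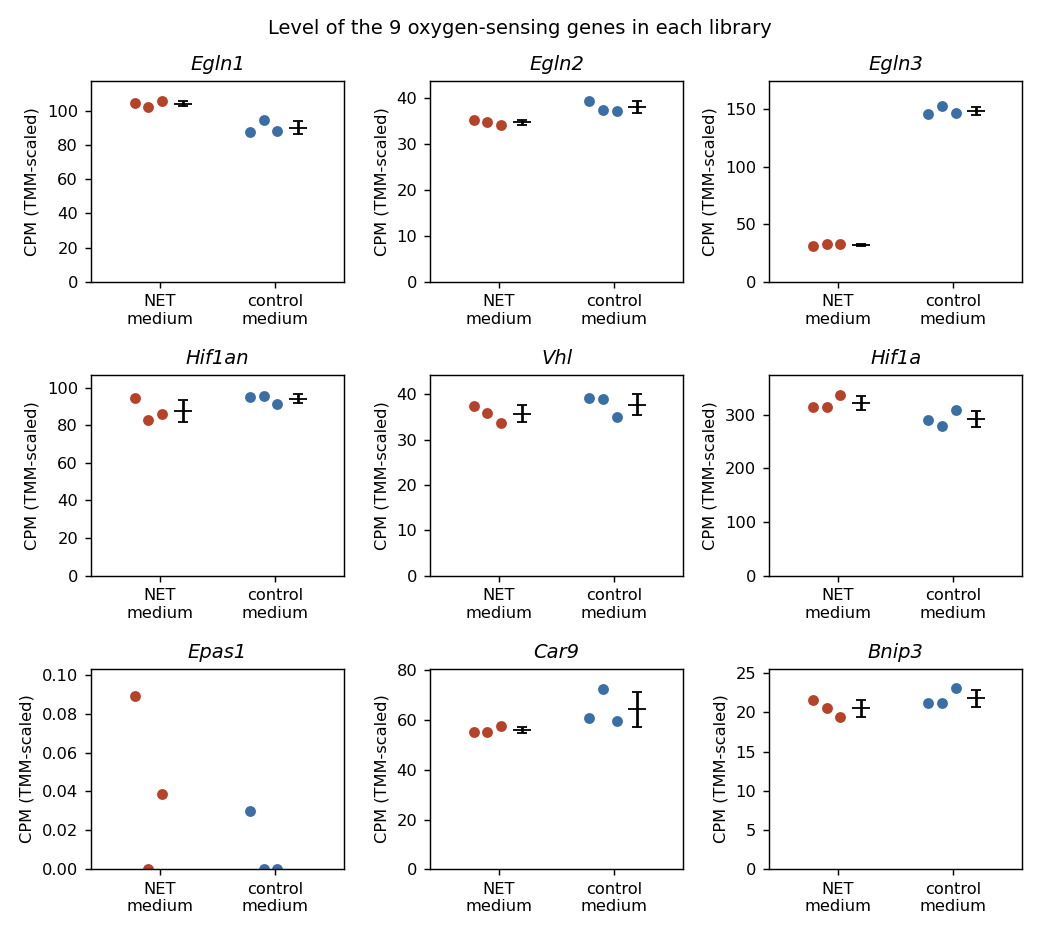
Level of each of the 9 genes in CPM in the 3 NET medium libraries (red, left) and the 3 control medium libraries (blue, right), each panel with its own axis from 0. Black marks are the mean ± SD (n = 3), which is left out for Epas1; Egln3 is the gene whose groups are far apart, at 30.99 to 32.7 CPM against 146 to 152 CPM.

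The balance of the 3 prolyl hydroxylase transcripts differed between the media. Levels between genes can be compared only per length, so CPM was divided by the exon length in kilobases. Egln3 made up 21.9%, 23.0% and 22.9% of the summed level of Egln1, Egln2 and Egln3 in NET medium, against 58.7%, 59.1% and 59.3% in control medium. Egln1 made up 54.2% ± 0.540 in NET medium and 26.6% ± 0.510 in control medium, and Egln2 23.2% ± 0.511 in NET medium and 14.4% ± 0.667 in control medium (SD, n = 3 each). The most abundant of the 3 transcripts was thus Egln1 in each NET medium library and Egln3 in each control medium library. The summed level of the 3 genes was 53.3 ± 0.372 CPM per kb in NET medium and 94.2 ± 2.28 CPM per kb in control medium. Without Egln3, the sum of Egln1 and Egln2 was 41.3 ± 0.365 CPM per kb in NET medium and 38.6 ± 0.950 CPM per kb in control medium. No test is given for these shares, since they rest on the difference for which Egln3 was chosen.

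**Figure D2:**
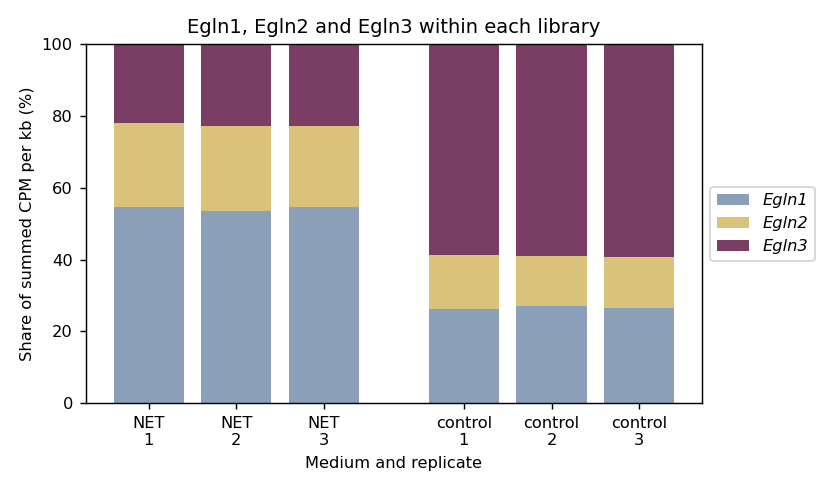
Share of Egln1, Egln2 and Egln3 in their summed CPM per kb of exon, in percent, for each of the 6 libraries, NET medium on the left and control medium on the right. Egln3 takes 21.9% to 23.0% in the NET medium libraries and 58.7% to 59.3% in the control medium libraries.

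The asparaginyl hydroxylase gene and the VHL gene stayed on the uncalled side. Hif1an was at 94.5, 83.1 and 85.8 CPM in NET medium and at 95.3, 95.6 and 91.6 CPM in control medium. The groups overlap, since NET medium replicate 1 lies among the control medium libraries, and the log2 fold change was -0.10 ± 0.06. Without that library Hif1an was called lower (-0.16), as it was with library size alone (-0.17). Vhl was at 37.5, 36.0 and 33.8 CPM in NET medium and at 39.1, 38.9 and 35.1 CPM in control medium, with overlapping groups and a log2 fold change of -0.08 ± 0.06. The pseudogene Vhl-ps1 is listed at 0 counts in each of the 6 libraries.

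Of the HIF alpha subunits the cells expressed Hif1a and next to no Epas1. Hif1a was at 315, 314 and 337 CPM in NET medium and at 291, 278 and 309 CPM in control medium. The groups were next to each other without overlap, and Hif1a was called higher at 1.101-fold (log2 fold change 0.14 ± 0.05). That call is not stable: it ended without NET medium replicate 1 (0.15), NET medium replicate 3 (0.10), control medium replicate 1 (0.13) or control medium replicate 2 (0.10), and with upper-quartile factors (0.12), library size alone (0.07) and no low-count filter (0.13). Exons of Gm15283 on the other strand share 5.597% of its exon bases and held 2 to 17 counts in NET medium and 26 to 34 counts in control medium. Epas1 had 4, 0 and 2 counts in NET medium and 2, 0 and 0 counts in control medium. These counts are too few to test. A count of 0 allows up to 0.193 CPM in NET medium replicate 2. In control medium replicates 2 and 3 it allows up to 0.137 and 0.110 CPM. These limits take 3 fragments and counting error only, over total counts without TMM factors. Per length, the ratio of Hif1a to the sum of the 3 prolyl hydroxylase genes was 1.02 ± 0.0352 in NET medium and 0.527 ± 0.0386 in control medium (SD, n = 3 each). This ratio too rests on the difference for which Egln3 was chosen. Without Egln3 the sum was 41.3 ± 0.365 CPM per kb in NET medium and 38.6 ± 0.950 CPM per kb in control medium.

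The target genes Car9 and Bnip3, unlike Egln3, differed little between the media. Car9, whose product sits at the cell surface and helps cells export acid, was at 55.0, 55.3 and 57.5 CPM in NET medium and at 60.9, 72.3 and 59.6 CPM in control medium. Control medium replicate 2 stands above the other control medium libraries. Car9 was called lower at 1.15-fold (log2 fold change -0.20 ± 0.07), and the fold change was -0.11 and not called without that library. The call also ended without NET medium replicate 1 (-0.19), NET medium replicate 2 (-0.19) or NET medium replicate 3 (-0.22). Exons of the gene model Gm12454 on the other strand share 28.6% of the exon bases of Car9 and held 62 to 106 counts in NET medium and 120 to 153 counts in control medium, so Car9 is uncertain to that extent. Bnip3, whose product marks mitochondria for removal by autophagy, was at 21.5, 20.6 and 19.3 CPM in NET medium and at 21.2, 21.1 and 23.0 CPM in control medium. These groups overlap, and the log2 fold change was -0.09 ± 0.07, not called.

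Counted over the 8 genes that could be tested, 2 were called higher (Egln1 and Hif1a) and 2 lower (Egln3 and Car9), against 20.2% of all tested genes higher and 18.7% lower. For 5 of the 8 the groups stood apart in CPM without overlap, against 49.0% of all tested genes. The median log2 fold change of the 8 was -0.09, and that of all tested genes was -0.00. Egln3 alone of the 8 was called and lower by at least 2-fold, as were 2.31% of all tested genes. For the other 7 the log2 fold changes lay between -0.20 and 0.21. Since the genes were put together with this comparison in view, nothing is read from these counts.

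In control medium Egln3 had the highest level of the 9 genes per length, at 55.6 ± 1.39 CPM per kb, followed by Hif1a at 49.6 ± 2.58 CPM per kb. Before division by length Hif1a was the higher, at 293 ± 15.2 CPM against 148 ± 3.69 CPM for Egln3 in control medium. The exon lengths used were 5896 bases for Hif1a and 2662 bases for Egln3, so the order of these 2 genes depends on them. In NET medium Hif1a stood first at 54.6 ± 2.26 CPM per kb and Egln1 second at 28.9 ± 0.441 CPM per kb. Egln3 was at 12.04 ± 0.349 CPM per kb there, and its range overlapped those of its neighbours Egln2 (12.4 ± 0.192 CPM per kb) and Vhl (11.9 ± 0.635 CPM per kb), so the order of these genes is open. In control medium the ranges of Car9 and Egln1 overlapped, as did those of Hif1an and Egln2. Bnip3 was the lowest of the 8 measured genes in both media, at 9.04 ± 0.480 CPM per kb in NET medium and 9.61 ± 0.485 CPM per kb in control medium (SD, n = 3 each). Gene models on the other strand share 28.6% of the exon bases of Car9 and 22.3% of those of Bnip3, where the model of Bnip3, Gm45507, had 0 counts. Since the strand setting is not known, the places of Car9 and Bnip3 in these orders, that of Car9 beside Egln1 included, are uncertain.

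**Figure D3:**
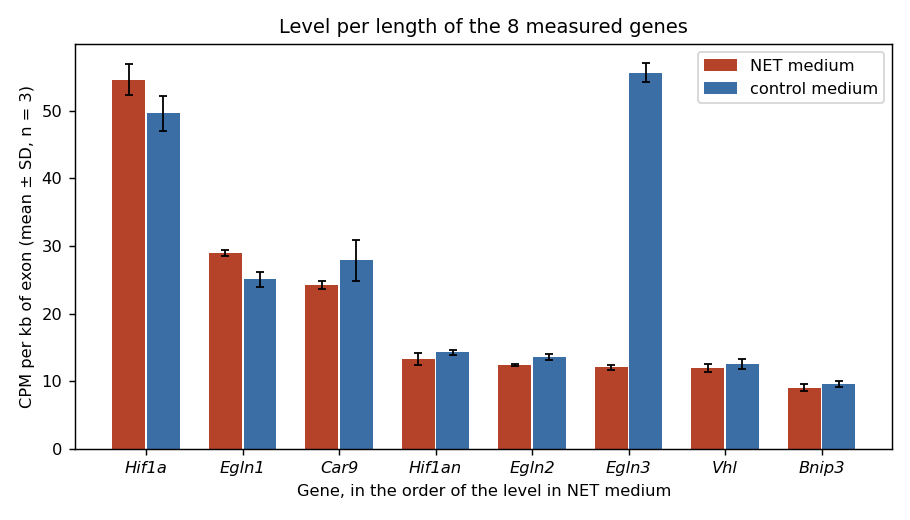
Mean level of the 8 measured genes in CPM per kb of exon, with the SD over 3 libraries, in NET medium (red, left bar of each pair) and control medium (blue, right bar). Egln3 stands at 12.04 CPM per kb in NET medium and 55.6 CPM per kb in control medium, where it is the highest bar.

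Of 5 tested genes on the list of 7 partners and cofactors of HIF, 1 was called higher and 2 lower, where 20.2% of all tested genes were higher and 18.7% lower. Cited2, whose product competes with HIF-1 alpha for the coactivators p300 and CBP, was at 417, 435 and 472 CPM in NET medium and at 146, 158 and 179 CPM in control medium. It rose 2.74-fold (log2 fold change 1.45 ± 0.07, edgeR adjusted p = 3.01e-10). Its relative Cited4 was 2.54-fold lower at 0.964 ± 0.204 CPM in NET medium against 2.41 ± 0.222 CPM in control medium (edgeR adjusted p = 0.000116). Arnt, the gene of the partner with which the alpha subunits bind DNA, fell to 58.4 ± 2.57 CPM in NET medium, against 68.8 ± 4.25 CPM in control medium (log2 fold change -0.24 ± 0.06, edgeR adjusted p = 0.00393). The coactivator genes Ep300 and Crebbp were not called, with log2 fold changes of -0.08 and 0.13 (edgeR adjusted p = 0.230 and 0.0930). Ep300 was called lower with library size alone (-0.15).

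Core genes of the ubiquitin ligase that VHL joins were not called. Elob, Eloc, Cul2 and Rbx1, which encode its elongin, cullin and RING subunits, had log2 fold changes from -0.02 to 0.13, and none of the 4 was called, although Elob was called higher without NET medium replicate 2 (0.24). Over the whole list of the ligase and of factors that affect HIF stability, 2 of 11 tested genes were called higher and 0 lower, 18.2% against 38.9% of all tested genes. Os9, whose product takes part in the quality control of proteins in the endoplasmic reticulum and has been reported to bind HIF-1 alpha, rose to 130 ± 13.2 CPM in NET medium, against 105 ± 3.37 CPM in control medium (log2 fold change 0.31 ± 0.06, edgeR adjusted p = 0.000948). The chaperone gene Hsp90ab1 rose 1.13-fold (edgeR adjusted p = 0.0173), a call that ended with library size alone (log2 fold change 0.11) and without NET medium replicate 2 (0.15), control medium replicate 1 (0.15) or control medium replicate 2 (0.17).

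HIF target genes other than those described above went up and down in similar numbers. Of 60 such genes on the lists 52 were tested, and 18 were called higher and 14 lower, 61.5% against 38.9% of all genes tested. Their median log2 fold change was -0.05. With library size alone in place of TMM 14 were higher and 24 lower, so that 36.8% of the called targets were higher against 56.2% with TMM, and over all tested genes that share moved likewise, to 35.9% from library size alone against 52.0% with TMM.

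Among the targets outside glycolysis, 16 of 33 tested genes were called higher and 8 lower, 72.7% against 38.9% of all tested genes. Bhlhe40, a transcriptional repressor gene, was at 699, 714 and 728 CPM in NET medium and at 113, 125 and 145 CPM in control medium, 5.597-fold higher (edgeR adjusted p = 4.22e-12). Ddit4, whose product restrains mTORC1, rose 2.77-fold to 667 ± 53.5 CPM in NET medium, against 241 ± 17.7 CPM in control medium (edgeR adjusted p = 4.23e-11). Both genes stood far above their control medium levels in every NET medium library. Vegfa, the vascular endothelial growth factor gene, was at 116, 128 and 130 CPM in NET medium and at 73.4, 75.6 and 83.0 CPM in control medium (1.61-fold higher, edgeR adjusted p = 8.31e-08). Adm, the adrenomedullin gene, rose 2.00-fold at a low level, to 3.19 ± 0.977 CPM in NET medium against 1.57 ± 0.199 CPM in control medium (edgeR adjusted p = 0.00157). P4ha1, a collagen prolyl hydroxylase gene, rose 1.14-fold (edgeR adjusted p = 0.0129), and its call ended with library size alone (log2 fold change 0.12) and without NET medium replicate 3 (0.18), control medium replicate 1 (0.17) or control medium replicate 2 (0.15).

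Other members of the same list fell. Hilpda, which encodes a lipid droplet protein, fell to 14.7 ± 0.526 CPM in NET medium, against 22.7 ± 2.05 CPM in control medium (log2 fold change -0.62 ± 0.08). Stc2, the stanniocalcin 2 gene, fell to 74.2 ± 4.93 CPM in NET medium, against 111 ± 8.17 CPM in control medium (-0.58 ± 0.06). Both passed with an edgeR adjusted p of 1.08e-05 for Hilpda and 1.45e-06 for Stc2. Ankrd37 fell 1.698-fold at a low level, 1.06 ± 0.235 CPM in NET medium against 1.78 ± 0.225 CPM in control medium (edgeR adjusted p = 0.0177), and was not called without NET medium replicate 3 (log2 fold change -0.65) or control medium replicate 2 (-0.66). Exons of Lrp2bp on the other strand share 22.7% of its exon bases and held 2 to 8 counts in NET medium and 2 to 4 counts in control medium. Those of Ufsp2, also on the other strand, share 3.70%. Ufsp2 held 1287 to 2279 counts in NET medium and 1839 to 2848 counts in control medium, so Ankrd37 is uncertain to that extent. Ndrg1, a HIF target of many tumour lines, was at 329 ± 16.9 CPM in NET medium and 342 ± 5.10 CPM in control medium, with overlapping groups and edgeR adjusted p = 0.425, and was called lower with library size alone (-0.12).

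Among the glycolytic targets, 2 of 19 tested genes were called higher and 6 lower, 42.1% against 38.9% of all tested genes, which is near the background. The list's median log2 fold change was -0.10. Aldoc, an aldolase gene, was at 10.9, 10.8 and 11.9 CPM in NET medium and at 21.7, 23.4 and 19.3 CPM in control medium, 1.90-fold lower (edgeR adjusted p = 2.62e-07). The genes Pfkfb3 and Pfkfb4, whose products set the level of an activator of phosphofructokinase, had log2 fold changes of -0.64 ± 0.08 and -0.42 ± 0.06 (edgeR adjusted p = 6.58e-06 and 3.13e-05). The phosphofructokinase gene Pfkp fell too (-0.42 ± 0.06, edgeR adjusted p = 7.69e-05), and 5.58% of its exon bases are shared with Pitrm1 on the other strand. Pgk1, the phosphoglycerate kinase gene, fell to 179 ± 6.13 CPM in NET medium, against 208 ± 6.84 CPM in control medium (edgeR adjusted p = 0.00176). The glucose transporter gene Slc2a1 was at 127 ± 3.88 CPM in NET medium and 130 ± 3.59 CPM in control medium (log2 fold change -0.03 ± 0.05, edgeR adjusted p = 0.638). Hexokinase gene Hk2 rose 1.14-fold (edgeR adjusted p = 0.00755) and triose phosphate isomerase gene Tpi1 rose 1.12-fold (edgeR adjusted p = 0.0220). The call of Hk2 ended with library size alone (log2 fold change 0.13) and without control medium replicate 1 (0.14). That of Tpi1 ended with library size alone (0.09) and without NET medium replicate 2 (0.13), NET medium replicate 3 (0.16), control medium replicate 1 (0.15) or control medium replicate 2 (0.12). Neither Ldha, the lactate dehydrogenase gene, nor Pdk1, a pyruvate dehydrogenase kinase gene, was called, with log2 fold changes of -0.12 and -0.12. Both were called lower with library size alone (-0.19 for each), and Ldha also with upper-quartile factors (-0.15), with no low-count filter (-0.14) and without NET medium replicate 2 (-0.18).

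Relatives of Car9 and Bnip3 were set beside them. Of 15 other carbonic anhydrase genes 7 were tested, 0 were called higher and 2 lower, 28.6% against 38.9% of all tested genes. Car12, another cell surface carbonic anhydrase, was at 18.4, 18.5 and 17.0 CPM in NET medium and at 26.95, 22.6 and 25.5 CPM in control medium (log2 fold change -0.48 ± 0.08, edgeR adjusted p = 0.000104). Car13, a cytosolic one, was at 23.6, 24.4 and 29.7 CPM in NET medium and at 37.1, 37.3 and 36.9 CPM in control medium (-0.52 ± 0.08, edgeR adjusted p = 5.15e-05). Of 8 other mitophagy receptor and regulator genes 7 were tested and none was called, 0% against 38.9% of all tested genes. For 2 of the 7 the groups did not overlap in CPM, as for 49.0% of all tested genes. Bnip3l, the closest relative of Bnip3, was at 120 ± 0.211 CPM in NET medium and 122 ± 3.28 CPM in control medium (log2 fold change -0.03 ± 0.05, edgeR adjusted p = 0.693).

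**Figure D4:**
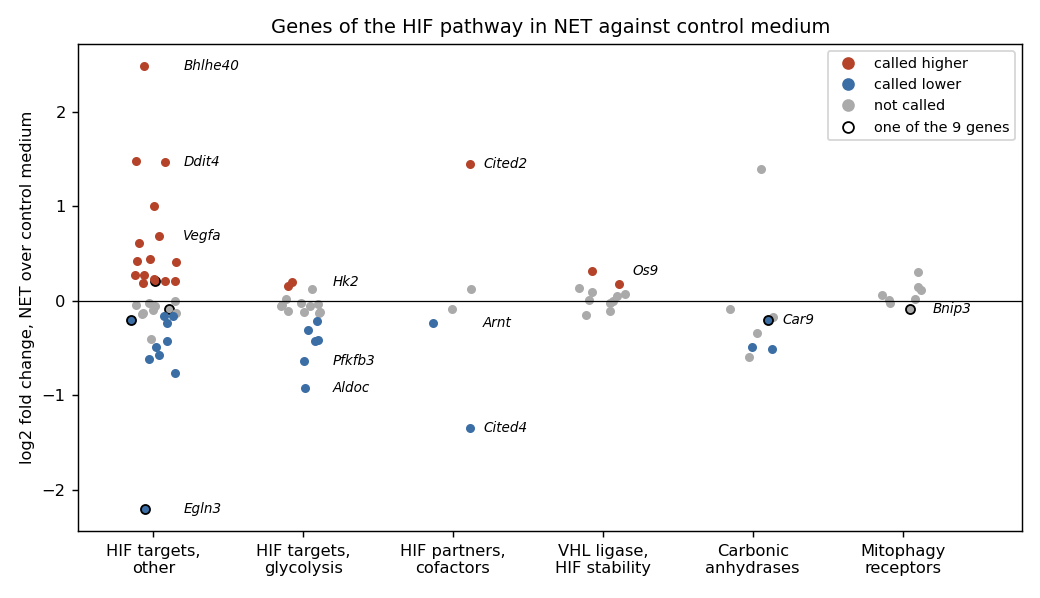
Log2 fold change, NET over control medium, of tested genes on 6 lists of the HIF pathway, coloured by the call, with Egln1, Egln3, Car9 and Bnip3 outlined in black on each list that holds them. Bhlhe40 at 2.48 and Egln3 at -2.21 lie at the ends of the first list as drawn. The mitophagy list has no called gene, where 38.9% of all tested genes were called.

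The genes whose pattern over the 6 libraries was most like that of Egln3 were sought among 9830 genes whose mean reached 5 CPM, by the mean absolute difference of log2 CPM after centring each gene. The 5 nearest were the coactivator gene Eya2 (mean difference 0.0290), the integrin gene Itga8 (0.0633), the mitochondrial arginase gene Arg2 (0.0842), Fer1l6 (0.110) and the chemokine gene Cxcl1 (0.123). Eya2 was at 20.05 ± 0.196 CPM in NET medium and 95.2 ± 5.07 CPM in control medium, and Cxcl1 at 68.3 ± 3.73 CPM in NET medium and 286 ± 36.3 CPM in control medium (SD, n = 3 each). Over 2 groups this measure finds genes with a fall of similar size, and says no more of them. Their own log2 fold changes ran from -2.06 for Cxcl1 to -2.42 for Fer1l6.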

How the data were processed

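RNA of 6 libraries was sequenced, 3 per medium, grouped by the titles. The authors deposited one table of counts per gene symbol, whole numbers with the columns of featureCounts. Per the submitters' processing notes STAR 2.7.10a, featureCounts of Subread 2.0.3 and build mm10 were used. The sources used here do not give the annotation, the strand setting or the handling of multi-mapping reads. Of 38933 symbols compared, 11.3% overlapped their GRCm38 position, so the table's coordinates, counted from 1, follow a build that is not named. Between 74.8% and 78.4% of counts from 1 to 20 were even, against about 50% for reads counted singly, so both mates of a pair appear to have been counted and the limit for a count of 0 (3 fragments) was set at 6 counts.

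Counts were scaled by TMM, filtered with filterByExpr (minimum count 10) and tested in edgeR 4.0.16 under R 4.3.3 (robust glmQLFit, then glmQLFTest), with medium as the only term. P-values were adjusted by Benjamini-Hochberg over all 13956 tested genes and called at 0.05. Each SE is the log2 fold change divided by the root of its F value. The procedure was tested on simulated data with far fewer differing genes than were called here and with no pairs counted double. That simulation therefore cannot judge the scaling of these data or the effect of such counting. The members, lists and tests were chosen with earlier results of these data known. Genes were named by a rule: all 9 members, any tested gene of lists of at most 12 symbols, fixed HIF targets, and of longer lists the 4 largest called changes each way whose mean reached 5 CPM, and the 5 genes most like Egln3, gene models without a name passed over. Not every gene the rule allows is printed. All 168 listed symbols were found, Ero1l under a newer symbol through RefSeq synonyms. Libraries of a group differed with a chi-square per degree of freedom of 9.66 to 25.2, so each was counted once. That value takes every count as independent, and counting both mates of a pair raises it. Alternatives were other scalings, filters, DESeq2 1.42.0, limma-voom 3.58.1, the replicate block, halved counts and leaving out each library. Promoter windows came from RefSeq on GRCm38.p6 and were not joined to the table's coordinates. The values of 1 listed HIF target are not reported here, in text or plot, although the counts over its list include it.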

Additional observations from a re-analysis of the deposited data

How the results depend on the processing

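The call of Egln3, and that of Egln1, held under all 15 alternatives, and no log2 fold change of the 8 tested members changed sign. Of the member genes, 1 in place of 2 was called higher with upper-quartile factors, with library size alone and with no low-count filter, and leaving out a library gave 1 to 2 higher and 1 to 2 lower. With library size alone 4 members in place of 2, and 24 HIF targets in place of 14, were called lower. Under that scaling the median log2 fold change of all genes moved by -0.07, and which scaling is the better one was not tested. Among the named genes of the lists, Rbx1 turned to -0.011 with upper-quartile factors and to -0.055 with library size alone, and leaving out a library gave -0.083 to 0.0995 for Rbx1 and -0.0455 to 0.0056 for Eloc; neither was called, and the cause was not tested. Same-numbered libraries had correlations of their deviations of 0.12, -0.06 and 0.06 for numbers 1, 2 and 3. With 3 libraries per group these values cannot decide whether the numbers pair the libraries. With the replicate block 2969 genes were called higher and 2713 lower, and Crebbp was called higher (0.13). Low counts limit Epas1, Ankrd37, Cited4, Mrc1 and Adm.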

Other observations

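Other enzymes that use oxygen to modify their substrates were described from a list of 25 genes, of which 24 were tested. Of these 8 were called higher and 5 lower, 54.2% against 38.9% of all genes tested. Some, P4ha1, P4ha2 and Plod2 among them, are also on the list of HIF targets outside glycolysis, so the 2 counts are not separate. The collagen prolyl hydroxylase gene P4ha2 rose to 7.39 ± 0.230 CPM in NET medium, against 5.53 ± 0.471 CPM in control medium (edgeR adjusted p = 0.00652), and the lysyl hydroxylase gene Plod2 rose to 113 ± 2.99 CPM in NET medium, against 93.2 ± 4.77 CPM in control medium (edgeR adjusted p = 0.000399). The histone demethylase gene Kdm5b rose to 108 ± 4.67 CPM in NET medium, against 77.1 ± 4.17 CPM in control medium, and another, Kdm6b, fell to 67.8 ± 1.05 CPM in NET medium, against 94.6 ± 3.42 CPM in control medium (log2 fold changes 0.48 ± 0.05 and -0.48 ± 0.05, edgeR adjusted p = 2.39e-06 and 9.44e-07). Ado, the gene of a thiol dioxygenase that acts as an oxygen sensor, fell to 67.3 ± 4.66 CPM in NET medium, against 86.2 ± 1.502 CPM in control medium (edgeR adjusted p = 7.80e-05). The RNA demethylase gene Fto rose 1.19-fold. The prolyl hydroxylase gene P3h2 fell by 0.33 on the log2 scale, a call that ended without NET medium replicate 1 (-0.25), and 28.4% of its exon bases are shared with Gm4524 on the other strand. Riox2, a ribosomal oxygenase gene, fell by 0.22, a call that ended without NET medium replicate 3 (-0.18) or control medium replicate 3 (-0.16), and it shares 22.4% of its exon bases with Crybg3 on the other strand.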
